A study of Mus musculus with 4 samples.

Results

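Cytosolic ribosomal protein genes were taken as the rows of plate 1 whose symbol starts with Rpl or Rps and a digit, or is Rplp0, Rplp1, Rplp2 or Rpsa, without rows marked -ps (pseudogenes) and without the Rps6k kinases. Of 96 rows with such a name, 4 pseudogene and 7 kinase rows were left out, which gave 85 members among 11352 rows with a gene name. They comprised 51 Rpl genes and 34 Rps-named genes, of which Rps19bp1 encodes a protein that binds Rps19 and is no part of the ribosome. Proteins of the standard mouse ribosome made up 77 of the members, while Fau and Gnb2l1 (an older symbol of Rack1), which also encode such proteins, had rows under names that the rule does not take.

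The cells were group 2 innate lymphoid cells (ILC2) from the pancreas of C57BL6J mice, index-sorted singly into 384-well plates and sequenced by SORT-seq, in which barcoded cDNA is amplified by in vitro transcription and only the 3' end of each polyadenylated RNA is read. They carried KIKR, a fluorescent protein that violet light turns from green to red, so that a photoconverted cell is red (Cell_Red in the sort record) and a non-photoconverted cell green (Cell_Green). The labels name neither the promoter that drives KIKR nor the animal or feeding state of any cell. Row names had been found to fit plate 1 of 4 only, so the values come from 1 sample that holds both colours, no test was made, and no difference between colours has a replicate check.

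Each cytosolic ribosome is built from a large (60S) and a small (40S) subunit, and needs nearly all of its proteins in equal numbers. Ribosomal protein mRNAs are among the most abundant of lymphocytes, and many begin with a tract of pyrimidines, the TOP element, through which mTORC1 and the RNA-binding protein Larp1 control their translation. Resting lymphocytes hold many of these mRNAs outside polysomes until they are activated, so mRNA level and protein synthesis can differ.

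Of 163 sorted wells, 8 of 12 photoconverted and 98 of 151 non-photoconverted cells were kept, having at least 500 genes with a read and a mitochondrial share below 25%. Reads of genes, without spike-ins, ranged from 56539 to 1677643 in photoconverted cells (median 540662) and from 17825 to 1274117 in non-photoconverted cells (median 187690). At least 3 of 14 ILC2 markers, led by Gata3 in 84.9% of cells, had 16 or more reads in 90 of the 106 cells, all 8 photoconverted cells among them. At least 3 of 5 measured T cell markers were present in 2 non-photoconverted cells, whereas the summed level of the acinar markers, 1 of whose 3 rows was at 0 in all these cells, was 0 in photoconverted cells and at most 20.9 reads per 1000000 gene reads (CPM) in the others. Lists for B cells, NK cells, myeloid and stromal cells had 1 or 2 rows each, of which the myeloid gene Cst3 was found in 33% of cells. Summed T cell markers reached 327 CPM in photoconverted cells and 4796 CPM in non-photoconverted cells, and their part in the values below was not tested.

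To show what stands at the start of these genes, 30 bases around the annotated start are printed from RefSeq (GRCm38.p6, the same assembly as mm10), 15 before it and 15 from it on. Shown are the genes described below for a high level or a large difference that had 1 entry in the table. Capitals mark a run of 5 or more bases that are C or T, that opens with C within 5 bases of the start.

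Rps6 (chr4:86857353-86857382, minus strand): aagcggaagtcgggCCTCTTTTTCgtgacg

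Rps9 (chr7:3704026-3704055, plus strand): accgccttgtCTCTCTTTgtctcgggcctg

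Rpl18 (chr7:45718056-45718085, plus strand): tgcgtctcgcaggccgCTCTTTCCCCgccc

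Rpl31 (chr1:39367836-39367865, plus strand): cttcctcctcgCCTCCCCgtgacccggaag

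Rpl39 (chrX:37085208-37085237, minus strand): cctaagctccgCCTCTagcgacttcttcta

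Rpl5 (chr5:107900513-107900542, plus strand): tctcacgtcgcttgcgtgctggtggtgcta

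Rpsa (chr9:120127751-120127780, plus strand): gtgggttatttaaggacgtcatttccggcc

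Rpl23 (chr11:97782425-97782454, minus strand): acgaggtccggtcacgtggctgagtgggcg

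Rps3 (chr7:99483695-99483724, minus strand): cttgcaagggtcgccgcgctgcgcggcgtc

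Rpl27 (chr11:101442230-101442259, plus strand): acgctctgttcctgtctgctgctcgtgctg

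Rpl36al (chr12:69184053-69184082, minus strand): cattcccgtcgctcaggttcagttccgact

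Rps6, Rps9, Rpl18, Rpl31 and Rpl39 hold such a run, and Rpl5, Rpsa, Rpl23, Rps3, Rpl27 and Rpl36al do not within this window. A run was found in 29 of the 64 members with an entry (45.3%), against 21.2% of all 27025 genes with a promoter entry and 23.5% of the 8412 other genes with a row on plate 1. The search covered only the strand that has the sequence of the RNA, and annotated starts can lie some bases from the used ones. Among members that passed the level filter given below, the 23 with a run had a median level of 1146 CPM in non-photoconverted cells and the 29 without one 1593 CPM.

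Ribosomal protein reads were a large part of all gene reads in cells of either colour. In the 98 non-photoconverted cells the share was 3.85% at the lowest, 10.8% at the median and 31.4% at the highest, and 92 cells lay between 5% and 20%. The cell at 31.4% had 149788 gene reads and 1280 genes, and the cell at 3.85% had 33459 gene reads and 599 genes. Cells under 1000 genes had a median share of 13.2% (22 cells), those from 1000 to 2000 genes 9.6% (41 cells) and those over 2000 genes 10.1% (35 cells), so that the share was highest among the shallowest cells. Across the 98 cells, Spearman's rho of the share was -0.18 with the number of genes, 0.12 with the mitochondrial share, -0.27 with the share of Rn45s, the ribosomal RNA precursor, and 0.14 with red fluorescence. These coefficients are weak and describe cells of a single plate. The mitochondrial and Rn45s shares have the same read total as denominator as the ribosomal protein share.

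The shares of the 8 photoconverted cells, in the order of their wells, were 13.8%, 11.8%, 4.7%, 5.7%, 11.6%, 8.43%, 12.2% and 7.83%. Cells 3 and 4 were low, and the 8 values lay within the range of the non-photoconverted cells, 4 of them below their median. Photoconverted cells had more genes (median 2748.5 against 1637), so the comparison used, for each of them, the 5 non-photoconverted cells closest in number of genes, which gave 29 distinct cells with a median of 2718.5 genes. The mean share was 9.5% in photoconverted cells (SD over cells 3.31), 11% in depth-matched cells and 11.8% in all non-photoconverted cells (SD over cells 4.44). The difference from depth-matched cells was -1.45 percentage points. The SDs give the spread between single cells and do not measure the error of this difference. The median share was 10% in photoconverted and 10.2% in depth-matched cells, closer than the means. Of the 8 photoconverted cells, 4 lay below the mean of their 5 matched cells and the rest above it. Cells 3, 4 and 6 lay below all 5 of their matched cells, and 0 cells lay above all 5. Cell 4, with 5129 genes and 1677643 reads, had no true depth match, since the non-photoconverted cells closest to it had 3240 to 4480 genes and none had more. Leaving out 1 photoconverted cell at a time gave -2.08 to -0.87 percentage points, the smallest difference without cell 4 (1.66 times smaller than with it). The difference was positive, 0.15 percentage points, with the 1 nearest cell in place of 5, but -1.21 with the 10 nearest and -2.30 against all non-photoconverted cells. Its direction thus changed with the 1 nearest cell, and also with every sorted well included, as given below.

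**Figure D1:**
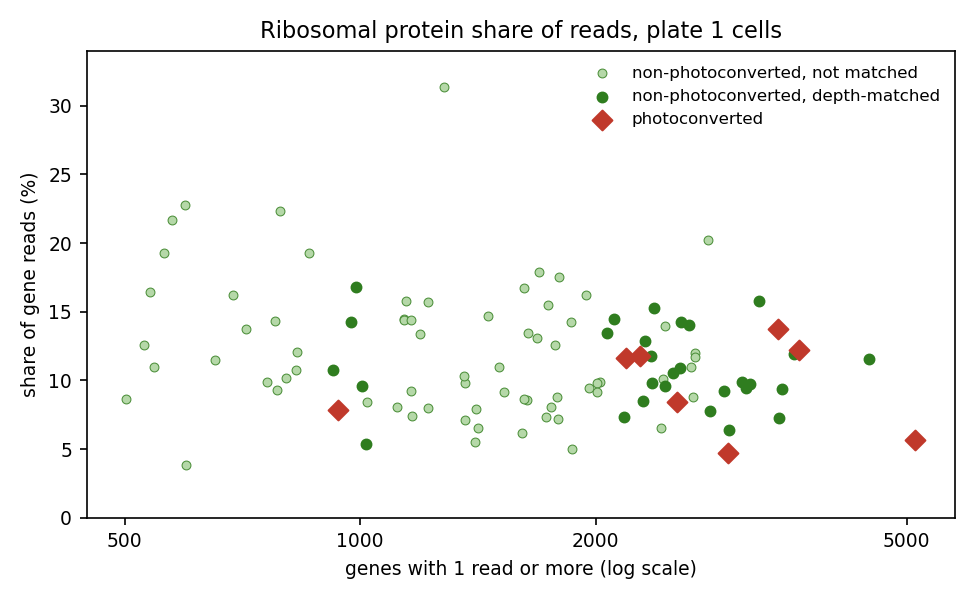
Share of gene reads taken by ribosomal protein genes (%, vertical axis) against the number of genes with 1 read or more (horizontal log axis) in the 106 cells of plate 1 that passed the filter; each point is a cell, red diamonds are the 8 photoconverted cells and dark green points the 29 depth-matched cells. The photoconverted cells lie from 4.7% to 13.8%, inside the spread of the non-photoconverted cells.

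Rn45s took 1.07% to 25.3% of gene reads in the photoconverted cells, highest in cell 5 (25.3%) and cell 2 (17.7%). With Rn45s and mitochondrial rows taken out of the total, the mean share was 11.5% in photoconverted cells and 14.3% over all cells of the other colour, and the difference from depth-matched cells -1.29 percentage points. Relative to spike-in RNA, a median of 0.882 ribosomal protein reads per spike-in read was found in photoconverted cells, 0.745 in depth-matched cells and 0.3 in all non-photoconverted cells. The geometric means were 0.669 in photoconverted and 0.664 in depth-matched cells, a log2 ratio of 0.01, which ran from -0.12 to 0.12 with 1 photoconverted cell left out at a time.

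Wells without a cell show how much of this signal is background. The 221 empty wells had a median of 27 ribosomal protein reads among 353 gene reads, against 17735 and 187690 in passing non-photoconverted cells, so their median share of 8% concerns few reads. A median of 13 members had at least 1 read in an empty well and a median of 0 had 16 or more. Detection of a member in a cell was therefore set at 16 reads. The 4 photoconverted wells that failed the filter had shares of 8.59%, 19.7%, 19.8% and 28.1% with 26 to 435 genes, and with every sorted well included the depth-matched difference was 1.68 percentage points, the opposite direction.

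Read levels differed widely from gene to gene although the ribosome uses the proteins in equal numbers. The part that reads fitting several genes, described below, have in this range was not tested. CPM values are compared between genes without division by length, because the method reads 3' ends. In non-photoconverted cells 34 of the 85 members were among the 100 genes of highest mean level and 66 among the highest 500. The median member stood at 1138 CPM, against 14.1 CPM over all genes. Among the 69 members detected in at least 25% of non-photoconverted cells, the highest and lowest mean levels had a ratio of 74.5, while the middle 50% of them lay between 909 and 2113 CPM, a ratio of 2.32. The 6 highest members held 25.8% of the summed member level, and 17 members held 50%.

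Among the highest members was Rps6, the small subunit protein that S6 kinases phosphorylate downstream of mTORC1 (chromosome 4, 86854660 to 86857412, mm10). It stood at 5986, 5339, 1344, 2609, 5567, 3208, 7205 and 5218 CPM in photoconverted cells, against 16.9, 5176 and 20717 CPM as lowest, median and highest non-photoconverted values. Cells 3 and 4 were low again, and the colours overlapped. Rpl5 (chromosome 5, 107900502 to 107909005), which binds 5S ribosomal RNA, stood at 4956, 4702, 1963, 1858, 6983, 3859, 5449 and 124 CPM, against a median of 4745 CPM. The value of cell 8, which had 938 genes, was low for Rpl5 but not for Rps6. Rpsa, the small subunit protein also known as laminin receptor (chromosome 9, 120127689 to 120132369), had a mean of 4801 CPM in non-photoconverted cells and stood at 6890, 6483, 1581, 3576, 4778, 2030, 6197 and 159 CPM in photoconverted cells. Rpl23, at the intersubunit side of the large subunit (chromosome 11, 97777527 to 97782437), had a mean of 4105 CPM and stood at 4645, 3336, 558, 1955, 2866, 3708, 3860 and 619 CPM. Cell 8 was low for both, as for Rpl5. Rpl39, a small protein of the exit tunnel (chromosome X, 37082520 to 37085402), had a mean of 3514 CPM and stood at 3250, 4493, 1712, 401, 3426, 657, 1319 and 124 CPM. These 5 genes had 16 or more reads in 91.8% to 98% of non-photoconverted cells.

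At the low end of the members that passed the filter stood Rpl31, at the rim of the exit tunnel (62.3 CPM), Rps26, next to the mRNA exit (96.8 CPM), Rpl36al, a paralog of Rpl36a (172 CPM), Rpl29 (203 CPM), Rpl7a (294 CPM) and Rpl14 (320 CPM), as means of non-photoconverted cells. Rpl31 passed with detection in 24.5% of non-photoconverted (exact 95% binomial interval 16.4 to 34.2%, counting error of cells only) and 7 of 8 photoconverted cells. In depth-matched cells it was detected in 50%. Rps26 was detected in 51% (40.7 to 61.3%) of non-photoconverted, 87.5% of depth-matched and 7 of 8 photoconverted cells.

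**Figure D2:**
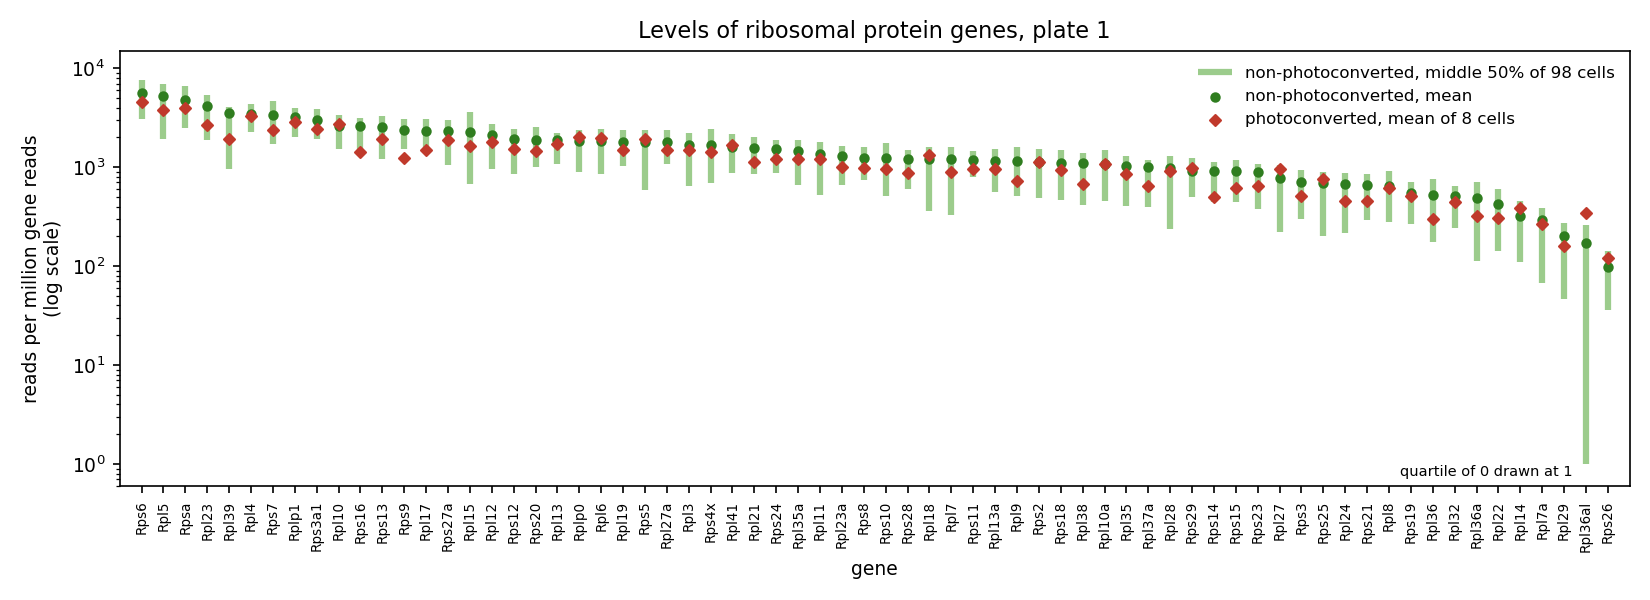
Mean level of 68 of the 69 ribosomal protein genes detected at 16 reads or more in at least 25% of non-photoconverted cells (CPM, vertical log axis), ordered by level; green points are means of 98 non-photoconverted cells, bars the middle 50% of those cells (a quartile of 0 is drawn at 1), and red diamonds means of 8 photoconverted cells. Levels run from 5581 CPM for Rps6 to 96.8 CPM for Rps26 in non-photoconverted cells, and across members the photoconverted means follow the depth-matched means with a Spearman's rho of 0.95.

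Several proteins that every ribosome needs had almost no reads. Of the 77 standard proteins among the members, 69 passed the filter of 16 reads or more in 25% of the 106 cells and 8 did not. Of these, 7 had under 100 reads each on the plate. Rpl26 had 6 reads, Rpl34 4, Rplp2 10, Rpl37 11, Rps15a 12, Rps27 62 and Rpl30 87, of which 63 were in 1 photoconverted cell. By contrast Rplp1, the partner of Rplp2 in the stalk that recruits elongation factors, stood at 3182 CPM, and Rplp0, the base of the stalk, at 1846 CPM. Ribosomal protein genes have many processed pseudogenes, and a read that fits several places may not have been counted for any.

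To put a value on this, the longest protein-coding GENCODE M21 transcript of each gene was taken, from those marked principal where there were any. Its last 300 bases were cut into windows of 50 bases, and windows that also occur in a transcript of another gene were counted. The median share of such windows was 59.4% in the 8 standard proteins that did not pass and 51.8% in the 69 that did. It was 100% for Rps27 and 80.1% for Rpl30, but 6.37% for Rplp2 and 0 for Rpl37 and Rps15a. It was also 100% for Rpl10, which stood at 2628 CPM. On these transcripts the share of repeated windows did not separate the genes with few reads from the rest. The transcripts taken for Rplp2, Rpl37 and Rps15a were 964, 835 and 5179 bases long, and the used 3' ends may differ from the annotated ones. Whether reads that fit several places left these rows low was therefore not tested. Of the 69 that passed, 36 had over 50% repeated windows and 21 had none. The share was 83.3% for Rps6 and 0 for Rpl5 among high members. Among low members it was 62.5% for Rps26 and 0 for Rpl31. Its part in the range of levels from gene to gene was not tested. Reads per gene are given as deposited, and the low rows are not read as low expression.

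Of the paralogs only Rpl36al passed the filter, at 172 CPM against 483 CPM for Rpl36a in non-photoconverted cells. Rps27l stood at 153 CPM with detection in 21.4% of cells, whereas Rps27 had 2.34 CPM, with 100% repeated windows. Rpl7l1 (21.1 CPM against 1196 CPM for Rpl7), Rpl3l (0.778 CPM against 1679 CPM for Rpl3), Rpl10l (1.45 CPM against 2628 CPM for Rpl10) and Rpl22l1 (2 reads on the plate) did not pass, nor did Rps4y2, named as a paralog of Rps4x, with 200 of its 347 reads in 1 photoconverted cell. The 4 members on the X chromosome, Rpl39, Rpl10, Rps4x and Rpl36a, stood at 3514, 2628, 1664 and 483 CPM. Rpl10, which completes the large subunit late in its assembly (chromosome X, 74270812 to 74273135), stood at 3020, 2346, 2170, 2174, 2773, 3172, 3176 and 2777 CPM in the photoconverted cells. Cells 3 and 4 stood just under and cell 8 above its non-photoconverted median of 2321 CPM, although these cells were low for most members.

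The mean ratio of the subunits was close between colours, and cells of each colour spread around it. Large subunit reads per small subunit read were 1.35 to 1.73 in the 8 photoconverted cells (mean 1.47, SD over cells 0.122) and 0.958 to 2.55 in non-photoconverted cells (mean 1.45, SD over cells 0.295). The depth-matched mean was 1.49. Large subunit members held 5.65% and small subunit members 3.85% of gene reads in photoconverted cells, against 6.5% and 4.45% in depth-matched cells.

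Members also varied less between cells than other genes did. The coefficient of variation over the 98 non-photoconverted cells had a median of 0.826 for the 70 members that passed, with Rps9 (0.545), Rpl4 (0.561) and Rpl19 (0.606) lowest and Rpl31 (1.72) highest, against 2.11 for all 949 genes that passed. Among genes with a mean level of 500 to 5000 CPM the median was 0.806 for 59 members and 1.65 for 168 other genes. The members of that range were detected in a median of 91.8% of cells and the other genes in 56.1%.

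Levels of members were positively but weakly correlated from cell to cell. On a scale of reads per non-member read, the median Spearman's rho over 2278 pairs of 68 members was 0.25 across the 98 non-photoconverted cells, against 0.03 between members and 159 other genes and 0.08 between those other genes. The median was 0.24 within the large subunit, 0.29 within the small subunit and 0.25 between them. All cells come from 1 plate, and pairs share a common total, so these values are a description.

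Among the 159 other genes detected in at least 50% of non-photoconverted cells, those described here as most like the summed ribosomal protein level were Eef1a1, the elongation factor that brings tRNA to the ribosome (rho 0.57), Gnb2l1 (0.49), Naca, which binds nascent chains (0.40), Tmsb4x (0.39) and Tpt1 (0.34). Gnb2l1 encodes a ribosomal protein that the symbol rule leaves out. The least like were Tnfaip3, an inhibitor of NF-kB (-0.38), Son (-0.32), the kinase gene Pim1 (-0.32), Eif4g2 (-0.31), Gm10845 (-0.30) and Mir5109 (-0.28). The median over the 159 genes was -0.03, and the 10 genes among them from a list of translation factors ran from -0.31 to 0.57.

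Gene by gene, the photoconverted cells differed little from depth-matched cells. Of the 70 members that passed the filter, 3 had a mean level at least 1.5-fold higher and 6 at least 1.5-fold lower, on the scale of log2(mean CPM + 10). Over all 949 genes that passed, 20% were at least 1.5-fold higher and 28.5% at least 1.5-fold lower, so the share of members past the fold was below the background on either side. One of the 3 higher members, Rpl31, passed the filter only through its detection in photoconverted cells. With the filter set on non-photoconverted cells alone, which was chosen after the data were seen, 2 of 69 members were higher and 6 lower, against 18.4% and 30% of 857 genes. Members that passed had 16 or more reads in a median of 90.8% of non-photoconverted cells, and the part of this detection in the narrow range was not tested. The median log2 ratio was -0.22 for the members and -0.18 for all genes. It was below 0 for 52 of 70 members and for 58.6% of all genes. With CPM taken over reads of non-member, nuclear genes, 1 member was higher and 9 lower (16.8% and 32.5% of all genes), with medians of -0.29 and -0.25. The split also moved with single cells: lower members numbered 13 without cell 1, 14 without cell 7 and 3 without cell 8, where 31.7%, 32.7% and 25.7% of all genes were lower. Higher members numbered 1 without cell 8, where 19.3% of all genes were higher.

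**Figure D3:**
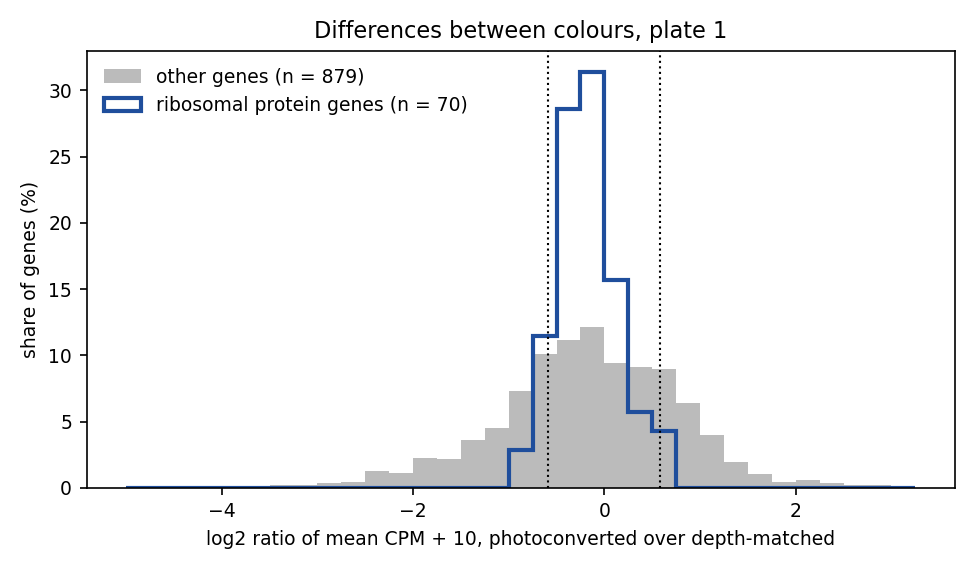
Share of genes (%, vertical axis) by log2 ratio of mean CPM + 10 of photoconverted over depth-matched cells (horizontal axis), for 70 ribosomal protein genes (blue line) and 879 other genes (grey); dotted lines mark 1.5-fold. The ribosomal protein genes lie between -0.79 and 0.71, while other genes spread further on both sides.

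Rps9, a small subunit protein (chromosome 7, 3703993 to 3706897), had the largest difference towards lower levels. It stood at 2538, 1028, 1270, 482, 945, 1123, 1308 and 1132 CPM in the photoconverted cells, against 0, 2192 and 7237 CPM as lowest, median and highest non-photoconverted values. Cells 2 to 8 lay below the non-photoconverted median, and the log2 ratio to depth-matched cells was -0.79. It was also the member with the lowest coefficient of variation.

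Rpl22, known for a part in T cell development (chromosome 4, 152325742 to 152334071), stood at 507, 340, 142, 178, 521, 317, 430 and 35.4 CPM, with a log2 ratio of -0.77. Its mean in depth-matched cells was 535 CPM. The median of all non-photoconverted cells was lower, 337 CPM, and 4 of the 8 cells were above it. Rps14, a protein of the 40S platform, stood at 776, 573, 518, 279, 670, 426, 638 and 70.7 CPM, below the non-photoconverted median of 743 CPM in 7 of 8 cells, with a log2 ratio of -0.71. Rpl23 (-0.69) and Rps3 (-0.61), at the mRNA entry site, followed. Rps3 had no read in cell 8 (0 CPM), while 5 of the 8 cells were above its non-photoconverted median of 661 CPM. That median is of all 98 non-photoconverted cells, whereas the log2 ratio uses the mean of depth-matched cells, 792 CPM for Rps3.

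In the other direction, Rpl36al (chromosome 12, 69182731 to 69184083, log2 ratio 0.71) stood at 372, 350, 825, 384, 0, 489, 361 and 0 CPM, so 6 cells were above the non-photoconverted median of 65.1 CPM and 2 had no reads. Rpl31, whose log2 ratio of 0.64 rests on a filter that it passed through the photoconverted cells, stood at 102, 43.5, 89.5, 53.6, 29.7, 46.9, 25.7 and 283 CPM, with its highest value in the shallow cell 8. Rpl27 (0.63) stood at 994, 468, 221, 440, 1378, 1451, 760 and 1963 CPM, against a non-photoconverted median of 572 CPM. Rpl18 (0.41) and Rps29 (0.38) came next, both under 1.5-fold. The stalk genes Rplp0 and Rplp1 had log2 ratios of 0.08 and 0.17. Rplp0 stood at 3419, 2561, 914, 1216, 1408, 1488, 4175 and 1114 CPM, and Rplp1 at 4830, 4692, 1286, 970, 3417, 1199, 3032 and 3502 CPM. Both were high in cells 1 and 2 and low in cells 3 and 4.

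Across the 70 members, 12 had 6 or more of the 8 photoconverted cells below the non-photoconverted median and 7 had 2 or fewer. This median is over all 98 non-photoconverted cells and is not depth-matched. Over all genes that passed, 3.27% had 6 or more cells below and 66.5% had 2 or fewer. These shares cannot be read against those of the members, because 31.6% of all genes have a non-photoconverted median of 0, below which no cell can lie. The number of members below the median differed widely between cells: 63 of 70 lay below it in each of cells 3 and 4, 48 in cell 6 and 45 in cell 8, against 8 in cell 1, 20 in cell 7, 23 in cell 2 and 28 in cell 5. The same count over all genes is not given per cell, so these counts are not read as particular to the members. They go with the summed share, which was lowest in cells 3 and 4 and highest in cell 1. Red fluorescence of cells 1 to 8 was 6812, 29626, 3538, 5897, 8332, 9779, 2202 and 2338 arbitrary units. Cells 3 and 4 were less red than cells 1, 2 and 5, but cell 7, with 20 members below, was the least red, and cell 6, with 48, the second most.

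**Figure D4:**
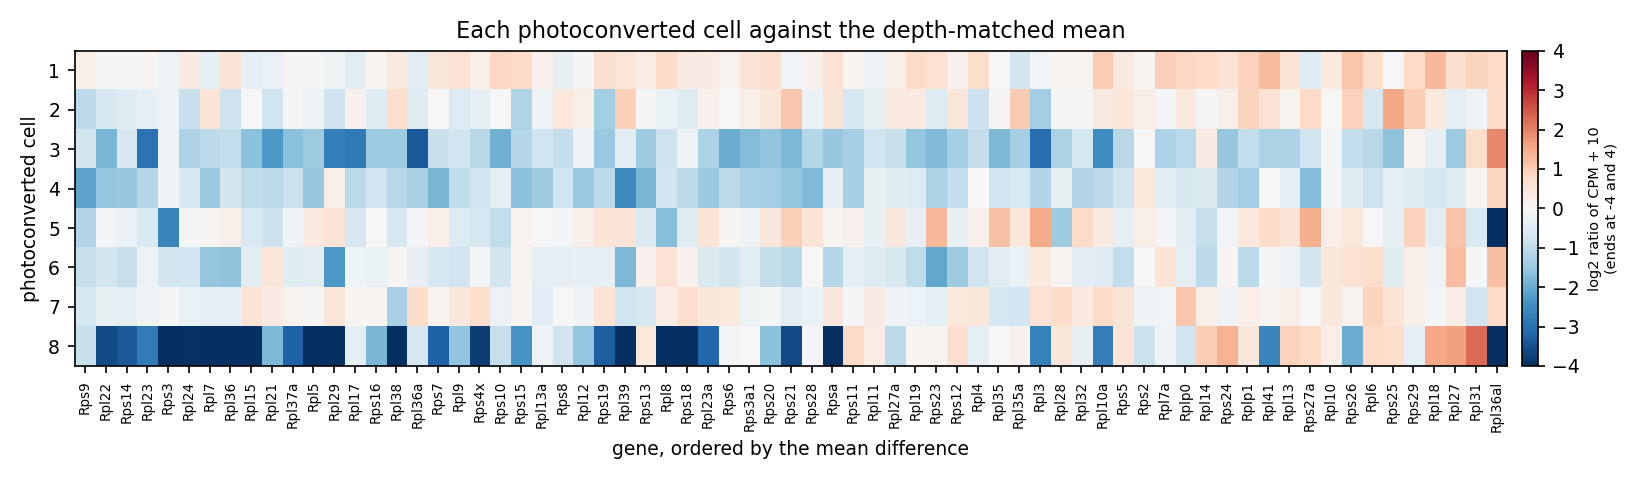
Log2 ratio of each photoconverted cell's CPM + 10 to the depth-matched mean (colour, ending at -4 and 4) for 69 of the 70 ribosomal protein genes that passed the filter (horizontal axis, ordered by the mean difference) in the 8 cells (vertical axis). Cells 3 and 4 are low across most genes, while cell 8, with 938 genes, has many values at the lower end of the colour scale.

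Other parts of the translation machinery were described by lists. The list of translation factors, in which Tpt1 was included, had 41 genes, of which 28 passed the filter. Of these 28, 7 were at least 1.5-fold higher and 8 at least 1.5-fold lower, with a median log2 ratio of -0.17. These values are close to the 20%, 28.5% and -0.18 of all genes. The 3 most abundant genes of this list differed little between photoconverted and depth-matched cells: Tpt1 at 3947 and 3313 CPM, Eef1a1 at 2629 and 2585 CPM, and Pabpc1, the poly(A)-binding protein, at 2450 and 2479 CPM. Of 40 ribosome assembly genes only 4 passed, 0 of them at least 1.5-fold higher and 2 lower, too few to set against the 28.5% of all genes that were lower. Among these, the nucleolar proteins Npm1 and Ncl stood at 961 and 190 CPM in photoconverted against 1383 and 546 CPM in depth-matched cells, and Polr1d, a subunit of RNA polymerases I and III, at 109 against 458 CPM. Npm1 (log2 ratio -0.52) lay within 1.5-fold, and 1 of the 4, not named here, had a log2 ratio above 0 (0.30).

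Of 23 genes of growth signalling 2 passed, neither past the fold, and Larp4 and Eif4ebp2 were each detected in 1 of 8 photoconverted cells. Of 76 mitochondrial ribosomal protein rows 1 passed the filter, so that family could not be compared with the cytosolic one at this depth. It held 0.194% of gene reads in photoconverted and 0.191% in depth-matched cells. Of the ribosomal proteins outside the symbol rule, Gnb2l1 had a log2 ratio of -0.41 and Fau of 0.06, both within 1.5-fold.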

How the data were processed

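Single ILC2 of mouse pancreas were sorted into 4 plates. The authors deposited raw read counts per row and well, not counts of molecular identifiers (maximum 119691 in 1 row and well of plate 1), and a sort record with colour and red fluorescence in arbitrary units. The tools named per the submitters' processing notes are STARsolo, STAR and edgeR, with the mm10 build, and which of them made the table is not given in the sources used here.

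Only plate 1 was used (52614294 reads, 43.2% in 78 spike-in rows, which were left out of totals; mitochondrial rows held 9.92% of gene reads). Because cells of 1 plate are not replicates, no count model was fitted. Shares, CPM (reads per 1000000 gene reads) and log2(mean CPM + 10) were computed with Python 3.11.15, pandas 2.3.3, numpy 2.4.6 and scipy 1.17.1. Genes entered comparisons with 16 reads or more in 25% of the 106 passing cells of any colour. Depth matching took, per photoconverted cell, the 5 closest non-photoconverted cells by log number of genes, with reuse. No doublet caller was run on singly sorted cells. Sequences are from RefSeq (64 of 85 members matched) and coordinates of genes from GENCODE M21. A few genes that fall under these rules are not reported here and were kept in the counts. Named members are the 6 highest and 6 lowest by level, the 5 largest differences in each direction, stalk, X-linked and paralog genes; others were named after their values were seen. From each further list, the 3 most abundant genes could be named. The members, lists and thresholds were chosen with earlier results of these data known. PCR copies of a molecule are not independent, and the counts are of reads. The binomial intervals are over numbers of cells, so they cover counting error of cells only, and no spread between animals or plates.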

Additional observations from a re-analysis of the deposited data

Results flagged for a closer look

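The 4 rows named as ribosomal protein pseudogenes, which no comparison used, held 330 reads in sorted wells of plate 1 and 0 in empty wells. Of these rows Rps19-ps3 had 212 reads and Rpl31-ps12 99 reads on the plate. Rps15a-ps4 had 13 reads and Rps15a-ps6 had 6. Together they took 0.00142% of gene reads in a mean non-photoconverted cell.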

How the results depend on the processing

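The values below are given as mean share in photoconverted cells, mean share in non-photoconverted cells and depth-matched difference in percentage points. Without mitochondrial rows they were 10.2%, 13.2% and -1.96; without these rows and Rn45s, an alternative added after the data were seen, 11.5%, 14.3% and -1.29. As share of rows after thinning to 1000 reads they were 9.28%, 11.6% and -0.21, and with reads summed over cells 8.93%, 11.3% and -1.97. With at least 1000 genes they were 9.74%, 11.2% and -1.16, and with every sorted well 12.7%, 11.9% and 1.68. With values under 16 reads set to 0 the shares were 9.59% and 12%. The difference was -2.30 against all non-photoconverted cells, 0.15 with the 1 nearest cell, -1.21 with the 10 nearest and -1.06 matched on non-member reads, and without single photoconverted cells it ran from -2.08 to -0.87. The cause of the 2 changes of direction was not tested.

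Members at least 1.5-fold higher and lower, 3 and 6, became, with the shares of all genes higher and lower in brackets where a fold was used, 1 and 10 against all non-photoconverted cells (20.3% and 26.3%), 1 and 9 over non-member reads (16.8% and 32.5%), 0 and 4 with a pseudocount of 100 (13% and 19.8%), 6 and 6 without a filter (17.8% and 33.5%), 2 and 6 with the filter at 50% of cells (14.5% and 20.8%), and 1 and 0 by a difference of 20 percentage points in share of cells. No share of all genes stands beside the count by share of cells, so that count is not read as a result about the members. Without single photoconverted cells, the members at least 1.5-fold higher and lower ran from 1 to 3 and from 3 to 14. The gene-to-gene ratio of 74.5 became 197460 with every row of at least 1 read, 65.8 by summed reads, 92.2 by median CPM and 43.3 in photoconverted cells. Large to small subunit reads summed over cells were 1.49 and 1.43 in photoconverted and non-photoconverted cells. The mean of the ratios per cell, 1.47 in photoconverted cells, ran from 1.44 to 1.49 without single photoconverted cells. The log2 ratio on the spike-in scale ran from -0.12 to 0.12. With 8 photoconverted cells of 1 plate, depth limits low members most. No paired analysis was possible because 1 plate was used and no test was made.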
